A study of Sus scrofa with 17 samples.

Results

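SOX7, ERG and DIPK2B are 3 genes of the vascular endothelium, followed here across 17 porcine kidneys at the end of an ex vivo perfusion, out of 26560 genes in the count table. They were taken by their gene identifiers, SOX7 as ENSSSCG00000031889, ERG as ENSSSCG00000022318 and DIPK2B as ENSSSCG00000026984, after their levels in kidneys given 2 injections of vesicles and in kidneys given none were known. The difference between those kidneys is therefore a description here and carries no test. On Sscrofa11.1 the RefSeq gene models span chr14:13938381-13945324 for SOX7, chr13:201999237-202302572 for ERG and chrX:40179289-40223011 for DIPK2B, which RefSeq lists under its older open reading frame name.

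Each kidney came from a different female Dutch Landrace pig, aged 6 months to 1 year and collected at a slaughterhouse. Each kidney underwent warm ischemia (32 min), then hypothermic machine perfusion (HMP, cold, 24 h) and then normothermic machine perfusion (NMP, at body temperature with blood cells of the same pig, 5 h), and the biopsy was taken when NMP ended. Group 1 (G1, n = 5) received PBS in both perfusions. Group 2 (G2, n = 6) was given extracellular vesicles of porcine urine progenitor cells (pUPC-EVs) in the cold perfusion and PBS in the warm one, which is 1 injection. In the 6 kidneys of Group 3 (G3) the dose in the cold perfusion was followed by another in the warm one, which makes 2 injections. The vesicles were 1 pooled preparation, so the groups do not speak to other preparations, and no kidney was sequenced before perfusion here.

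SOX7 is an HMG-box transcription factor of the SoxF family, which acts in the specification and patterning of blood vessels. ERG is an ETS-family transcription factor that keeps mature endothelial cells in their identity, in part by driving junction genes such as CDH5 (VE-cadherin) and CLDN5. DIPK2B encodes a protein with a divergent kinase domain, related to the DIPK and FAM20 proteins of the secretory pathway, and its role is poorly known. In the kidney the endothelium lines glomerular capillaries, arteries and the capillaries around the tubules, and it is the layer that the perfusate meets first.

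Total counts ran from 19270046 to 24736473 per kidney (median 21504848), and 18813 to 21049 genes had at least 1 read. Levels are given as CPM (TMM-scaled counts relative to the library total), a scale that does not take gene length into account, so the 3 genes are compared between kidneys and not with each other. SOX7 rested on 292 to 1088 reads per kidney, ERG on 365 to 771 and DIPK2B on 21 to 163, so that counting error weighs most on DIPK2B. The codes of the samples form 3 consecutive runs, called code series A, B and C here, whose meaning is not stated. Series A holds 2 G1, 2 G2 and 1 G3 kidneys, series B holds 2 G1 and 1 G3 kidneys, and series C holds 1 G1, 4 G2 and 4 G3 kidneys. The biopsies carried the defining genes of endothelium, with PECAM1 at 63.9 to 167 CPM, CDH5 at 125 to 246 CPM and KDR at 302 to 635 CPM. They also carried those of the proximal tubule (LRP2 at 1549 to 3380 CPM), the thick ascending limb (UMOD at 1620 to 6628 CPM), podocytes (NPHS1 at 8.76 to 20.3 CPM) and leukocytes (PTPRC at 6.58 to 20.2 CPM). In such whole-tissue samples, fewer cells of a type and less RNA per cell cannot be told apart.

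All 3 genes had their lowest mean in kidneys without vesicles, and SOX7 and ERG had their highest after 2 injections. Mean SOX7 and mean ERG were higher at each step, and which step was larger depended on single G2 kidneys, while DIPK2B had nearly equal means after 1 and after 2 injections. The steps from 0 to 1 and from 1 to 2 injections add up to the difference that chose the genes, so what the choice left free is how it divides between them, and neither step passed the test across all genes for any of the 3. Kidneys given 1 injection were widely spread, and some of them lay at the level of kidneys given none.

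SOX7 stood at 24.9, 18.2, 18.1, 20.3 and 18.8 CPM in G1 kidneys 1 to 5. In G2 kidneys 1 to 6 it stood at 31.2, 42.5, 22.4, 27.1, 20.1 and 15.8 CPM. In G3 kidneys 1 to 6 it stood at 38.8, 35.1, 28.4, 49.6, 40.6 and 24.9 CPM. The G1 kidneys lay close together with kidney 1 above the others, G2 held both the lowest value of all 17 kidneys (kidney 6) and the second highest (kidney 2), and each G3 kidney was above each G1 kidney. The gap between G1 and G3 was narrow, since the lowest G3 kidney had 24.92 CPM and the highest G1 kidney 24.89 CPM, and with library size as the only scaling the groups overlapped. Means were 20.1 ± 2.83 CPM in G1 (SD, n = 5), 26.5 ± 9.50 in G2 (SD, n = 6) and 36.3 ± 8.90 in G3 (SD, n = 6).

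ERG stood at 21.1, 18.9, 21.1, 20.4 and 18.8 CPM in G1 kidneys 1 to 5. In G2 kidneys 1 to 6 it stood at 32.8, 30.9, 19.0, 30.0, 17.7 and 19.8 CPM. In G3 kidneys 1 to 6 it stood at 30.3, 31.9, 21.1, 27.2, 24.5 and 32.0 CPM. The G1 kidneys were tightly bunched, the G2 kidneys fell on either side of them with kidneys 1, 2 and 4 above all of G1 and kidneys 3, 5 and 6 within or below its range, and 5 of the 6 G3 kidneys lay above all of G1. G3 kidney 3, at 21.06 CPM, was just under the highest G1 kidney at 21.12 CPM. Means were 20.1 ± 1.15 CPM in G1 (SD, n = 5), 25.0 ± 6.89 in G2 (SD, n = 6) and 27.8 ± 4.42 in G3 (SD, n = 6).

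DIPK2B stood at 1.65, 0.960, 1.57, 1.32 and 1.26 CPM in G1 kidneys 1 to 5, from 21 to 38 reads. In G2 kidneys 1 to 6 it stood at 5.87, 6.52, 3.15, 3.97, 1.97 and 1.19 CPM. In G3 kidneys 1 to 6 it stood at 4.01, 6.57, 1.85, 3.97, 2.98 and 3.72 CPM. The G1 kidneys were uniformly low, 5 of the 6 G2 kidneys were above all of them while kidney 6 lay among them, and all 6 G3 kidneys were above all of G1, kidney 3 by a small margin. Means were 1.35 ± 0.274 CPM in G1 (SD, n = 5), 3.78 ± 2.11 in G2 (SD, n = 6) and 3.85 ± 1.56 in G3 (SD, n = 6).

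**Figure D1:**
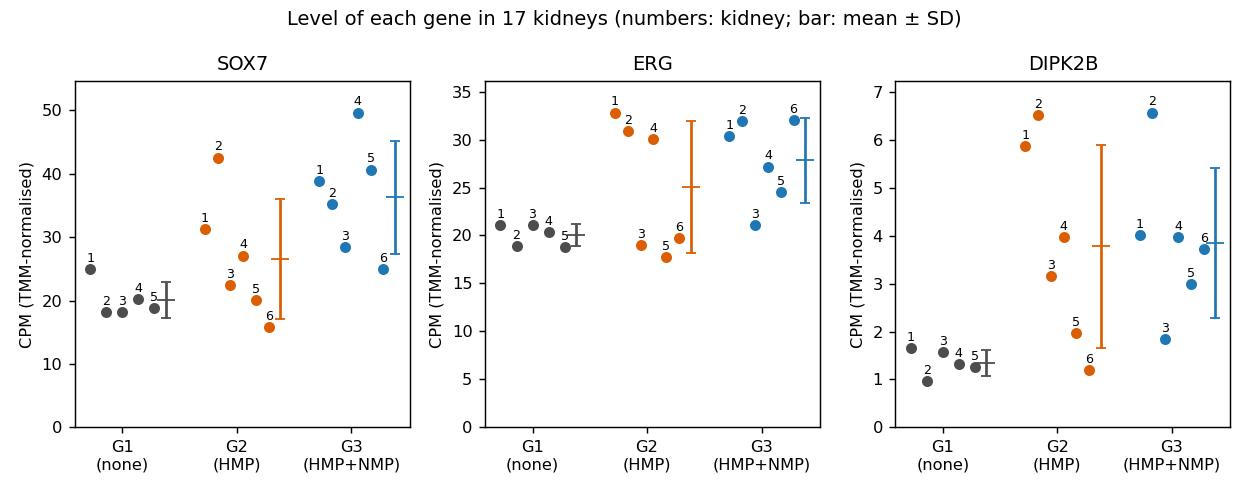
Level of SOX7, ERG and DIPK2B in each kidney, as TMM-scaled CPM on a linear axis from 0, by group (none, HMP, HMP and NMP). Points are kidneys with their number and bars are the mean and SD. The G1 kidneys are bunched, G2 spreads from the G1 level to the G3 level, and G3 means are 36.3, 27.8 and 3.85 CPM against 20.1, 20.1 and 1.35 in G1.

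Between 2 injections and none, the log2 fold change in edgeR's fit was 0.85 (SE 0.169) for SOX7, 0.46 (SE 0.124) for ERG and 1.49 (SE 0.298) for DIPK2B. These values chose the genes and are given as a description. SOX7 and DIPK2B had groups that did not overlap, with G3 higher, a pattern found in 0.124% of the 25719 genes tested, and nothing is read from that count for genes chosen on this contrast. Taken separately in code series A, B and C, mean log2 CPM of SOX7 was 0.86, 0.87 and 0.87 higher in G3 than in G1. For ERG it was 0.60, 0.62 and 0.46, and for DIPK2B 1.60, 2.12 and 1.20. In each series either G1 or G3 had a single kidney, so no agreement between series is read from these values.

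The comparison of 1 injection with none asks what is seen after vesicles in the cold perfusion alone. It shares the G1 kidneys with the contrast that chose the genes, and its tests are read with that in mind. DIPK2B was higher by a log2 fold change of 1.48 (SE 0.383, unadjusted p = 0.00122, adjusted p = 0.840), which was the 12th smallest p of 25699 genes. SOX7 was higher by 0.40 (SE 0.207, unadjusted p = 0.0679, adjusted p = 0.840) and ERG by 0.32 (SE 0.173, unadjusted p = 0.0816, adjusted p = 0.840). No member passed at an adjusted p under 0.05, where edgeR called 0 of all genes (0%) with 901 at an unadjusted p under 0.05, DESeq2 called 1 and voom 0. At an unadjusted p under 0.05 and higher in G2 stood 1 of the 3 genes, beside 1.42% of all genes. DESeq2 gave DIPK2B a log2 fold change of 1.49 with an adjusted p of 0.296, and voom gave 1.37 with an adjusted p of 0.909.

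These first-step differences were not the same in the code series. In series A the difference of mean log2 CPM between G2 and G1 was 0.77 for SOX7, 0.67 for ERG and 2.22 for DIPK2B, and in series C it was 0.15, 0.17 and 0.85. G2 kidneys 1 and 2, the G2 kidneys of series A, ranked 3rd and 2nd for DIPK2B among all 17 kidneys. Without both of them, an alternative chosen after seeing the data, the log2 fold change was 0.09 for SOX7, 0.11 for ERG and 0.93 for DIPK2B. With the code series as a covariate on all kidneys of G1 and G2, the log2 fold change was instead 0.50 for SOX7 (SE 0.204, adjusted p = 0.957), 0.46 for ERG (SE 0.197, adjusted p = 0.957) and 1.70 for DIPK2B (SE 0.399, adjusted p = 0.215). Series C holds a single G1 kidney.

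The comparison of 2 injections with 1 asks what the second injection, given in the warm perfusion, was followed by. It shares the G3 kidneys with the contrast that chose the genes. SOX7 was higher in G3 by a log2 fold change of 0.46 (SE 0.210, unadjusted p = 0.0423, adjusted p = 0.948), beside 0.40 at its first step. Without G2 kidney 2, the highest of its group, the first step was 0.22 and this one 0.64. ERG differed by 0.16 (SE 0.172, adjusted p = 1.00), less than the 0.32 of its first step, but without G2 kidney 1 it differed by 0.26 and the first step was 0.23. DIPK2B differed by 0.03 (SE 0.364, adjusted p = 1.00). At an unadjusted p under 0.05 and higher in G3 stood 1 of the 3 genes, beside 1.61% of all genes, and at an adjusted p under 0.05 edgeR called 0 of all genes (0%) with 805 at an unadjusted p under 0.05, DESeq2 called 3 and voom 0. The SE of DIPK2B leaves room for a difference in either direction, and its sign turned to -0.04 with library size as the only scaling. Within series A the difference of mean log2 CPM between G3 and G2 was 0.09 for SOX7, -0.07 for ERG and -0.62 for DIPK2B, and within series C it was 0.72, 0.29 and 0.35. Without G2 kidneys 1 and 2 the log2 fold change between G3 and G2 was 0.77 for SOX7, 0.37 for ERG and 0.58 for DIPK2B.

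Placed in order of mean level, SOX7 and ERG therefore ran G1, G2, G3, with neither pair of neighbours past the test across all genes. For DIPK2B the order of G2 and G3 is not resolved, with a ratio of their mean CPM of 1.02, while the ratio to G1 was 2.80 for G2 and 2.85 for G3. For SOX7 the ratio of mean CPM was 1.32 between G2 and G1 and 1.37 between G3 and G2. For ERG it was 1.25 and 1.11. A difference between the 3 genes in the shape of this order was not tested.

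Whether the genes were high in the same kidneys was examined after subtracting each group's mean from the log2 CPM, so that the group difference which chose the genes plays no part. In 11 of 17 kidneys all 3 genes lay on the same side of their group means, 5 above and 6 below. All 6 G2 kidneys were among these 11, with kidneys 1, 2 and 4 above and kidneys 3, 5 and 6 below. In G3 it was 2 of 6 kidneys, kidney 1 above and kidney 3 below, and in G1 3 of 5 kidneys.

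ERG and DIPK2B went together most closely. Over the 17 kidneys Pearson's r was 0.84 (permutation within groups, two-sided, p = 0.000660, adjusted over 3 pairs p = 0.00198) and Spearman's rho was 0.88 (permutation p = 0.000210, adjusted p = 0.000630). Within G2 alone r was 0.83 (n = 6, exact p = 0.0556) and within G3 alone 0.87 (n = 6, exact p = 0.0153), so the relation had the same sign and a like size in both treated groups. Without the 2 kidneys farthest from the median of ERG, G2 kidneys 1 and 5, r was 0.80 (permutation p = 0.00127). With the code series removed as well as the group, r was 0.69 (permutation p = 0.0681, adjusted p = 0.101), which no longer passed.

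SOX7 and DIPK2B had r = 0.73 (permutation p = 0.00774, adjusted p = 0.0116) and rho = 0.67 (permutation p = 0.0127, adjusted p = 0.0190). In G2 both genes put the 6 kidneys in the same order, 2, 1, 4, 3, 5 and 6 from high to low, with r = 0.96 (n = 6, exact p = 0.00278). In G3 r was 0.28 (n = 6, exact p = 0.624), and whether G2 and G3 differ in this was not tested. Without G2 kidneys 2 and 6, the 2 farthest from the median of SOX7, r was 0.52 (permutation p = 0.0972), so the pooled relation rests on those kidneys. Without G2 kidney 6 alone r was 0.62 (adjusted permutation p = 0.0588). With the code series removed r was 0.65 (permutation p = 0.0450, adjusted p = 0.101), which no longer passed.

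SOX7 and ERG, both transcription factors, had the lowest r of the 3 pairs, 0.56 (permutation p = 0.0810, adjusted p = 0.0810), with rho = 0.54 (permutation p = 0.0656, adjusted p = 0.0656). Within G2 r was 0.82 (n = 6, exact p = 0.0653) and within G3 it was -0.03 (n = 6, exact p = 0.942). Whether G2 and G3 differ in this was not tested. G3 kidney 6 had the lowest SOX7 and the highest ERG of its group, 0.50 below and 0.22 above the group mean on the log2 scale, and without it r over the remaining kidneys was 0.71 (adjusted permutation p = 0.0223). Without G2 kidneys 2 and 6 r was 0.40 (permutation p = 0.194), and with the code series removed it was 0.24 (permutation p = 0.508). Without subtracting group means, r was 0.72 for SOX7 with ERG, 0.79 for SOX7 with DIPK2B and 0.87 for ERG with DIPK2B, values which include the difference that chose the genes.

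**Figure D2:**
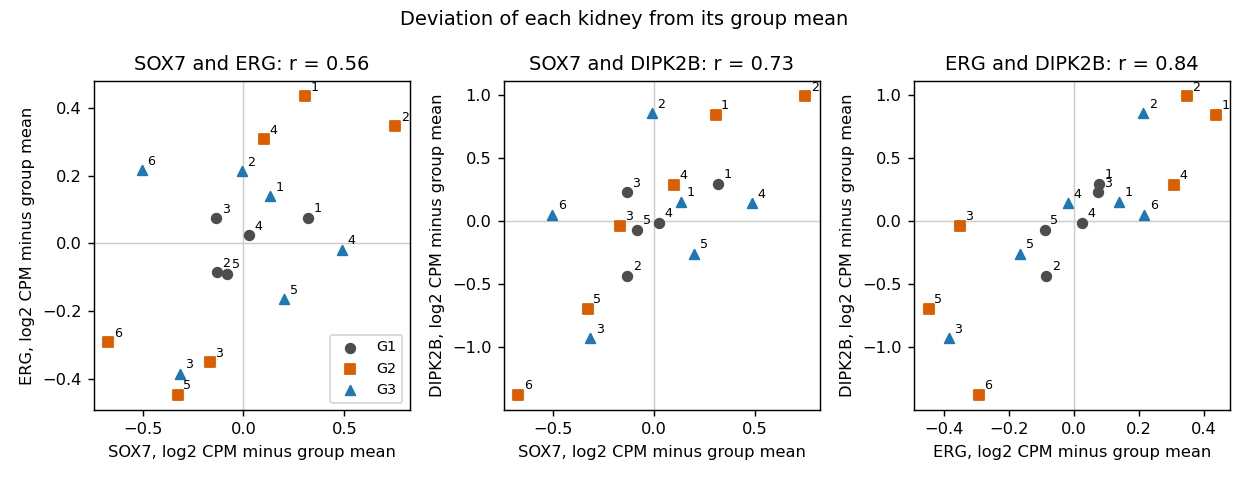
Each kidney's log2 CPM minus its group mean, for the 3 pairs of genes. Points are kidneys with their number, in grey circles for G1, orange squares for G2 and blue triangles for G3, and lines mark the group mean. ERG and DIPK2B line up in both treated groups (r = 0.84 over 17 kidneys). For SOX7 and ERG r is 0.56 over 17 kidneys, and G3 kidney 6 is low in SOX7 and high in ERG.

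Among the 13710 other genes with a mean of at least 1 CPM, ERG ranked 6th by its within-group r with DIPK2B, and DIPK2B ranked 24th by its r with ERG. DIPK2B was 74th for SOX7, and SOX7 was 76th for DIPK2B. ERG was 802nd for SOX7, so that 5.84% of genes followed SOX7 more closely, and SOX7 was 975th for ERG. The median r over all these genes was -0.05 with SOX7 and -0.01 with ERG and DIPK2B, and genes are not independent replicates. These ranks are descriptions.

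The 5 genes nearest to ERG included ZNF146 (r = 0.90), PDGFB (0.90), PECAM1 (0.89) and ORAI3 (0.89). PDGFB is the growth factor by which endothelium recruits pericytes, PECAM1 is the CD31 adhesion molecule of endothelial cells, and ORAI3 is a subunit of store-operated calcium channels. The 5 nearest to DIPK2B were ORAI3 again (r = 0.89), NOL12 (0.86), ACSL5 (0.86), a long-chain acyl-CoA synthetase, KCNE3 (0.85), a potassium channel subunit, and PDE7B (0.85), a cyclic AMP phosphodiesterase. The 5 nearest to SOX7 were the paraspeckle gene PSPC1 (r = 0.87), 3 genes that carry an identifier and no symbol (0.86 to 0.87) and the ribosome recycling factor ABCE1 (0.85). ORAI3 stood in the lists of both ERG and DIPK2B, and none of the 5 nearest to SOX7 stood in either.

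Together these were 14 genes, chosen without regard to the group means. Between G3 and G1 13 of the 14 had a positive log2 fold change (46.9% of all genes), with a median of 0.12 and a range of -0.03 to 0.46 (9 of 14 and a median of 0.03 with library size as the only scaling), and 0 passed at an adjusted p under 0.05 in edgeR, with 2 at an unadjusted p under 0.05 (4.73% of all genes). These 2 were ACSL5 at 0.46 (adjusted p = 0.813) and PECAM1 at 0.31 (adjusted p = 0.813). Between G2 and G1 12 of the 14 were positive (10 with library size alone, beside 49.3% of all genes), with a median of 0.15 (0.08 with library size alone). Between G3 and G2 7 of the 14 were positive (5 with library size alone), with a median of -0.01. Over all genes with a mean of at least 1 CPM, the filter these 14 passed, the median was 0.005 between G3 and G1. Between G2 and G1 it was 0.025. PSPC1, the gene nearest to SOX7 within groups, differed by 0.00 between G3 and G1 and by 0.09 between G2 and G1. These values are not set against those of SOX7, whose difference between G3 and G1 chose it.

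Relatives of the members were followed between G3 and G1, where 0 of the 16 tested passed at an adjusted p under 0.05, a threshold passed by 0.00778% of all genes, and 1 had an unadjusted p under 0.05 (4.73% of all genes). Of the SoxF family, SOX18 was at 0 to 0.826 CPM over the 17 kidneys, with a mean of 0.502 CPM in G1 and 0.302 in G3 (log2 fold change -0.70, SE 0.593, adjusted p = 0.813). That log2 fold change was -1.10 without G3 kidney 1 and -0.44 without G1 kidney 5. SOX17 was not matched to an identifier and is not analysed here. Of the 8 other ETS factors listed, FLI1, the closest relative of ERG and also an endothelial factor, had 12.3 ± 2.04 CPM in G1 (SD, n = 5) and 13.4 ± 1.71 in G3 (SD, n = 6), a log2 fold change of 0.12 (SE 0.148, adjusted p = 0.915). Its within-group r with DIPK2B was -0.21, where that of ERG was 0.84. ETV6 was higher in G3 by 0.28 (SE 0.117, unadjusted p = 0.0288, adjusted p = 0.813), and ETS1, ETS2, ELK3, ELF1 and ETV2 lay between -0.04 and 0.19, while FEV was near 0 reads. Of the DIPK2B relatives, DIPK2A had 11.0 ± 3.26 CPM in G1 (SD, n = 5) and 9.12 ± 2.08 in G3 (SD, n = 6), a log2 fold change of -0.27 (SE 0.206, adjusted p = 0.813). DIPK1A, DIPK1B, FAM20A, FAM20B and FAM20C lay between -0.28 and 0.27, and DIPK1C was near 0 reads.

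General markers of endothelium were then followed as a list of 32 genes, of which 30 had a symbol in the table and VWF and SHANK3 had none. Between G3 and G1 23 of these 30 had a positive log2 fold change (18 of 30 with library size as the only scaling), where 46.9% of all genes were positive. The list's median was 0.13, beside -0.02 over all genes and 0.005 over those with a mean of at least 1 CPM, as all 30 have. The list's median was 0.04 with library size alone, which shifted the median of all genes by -0.08, and 0.20 without G3 kidney 3. None passed at an adjusted p under 0.05 in edgeR (0.00778% of all genes), DESeq2 or voom, and 3 did at an unadjusted p under 0.05 (4.73% of all genes). PECAM1 was higher, at 115 ± 23.3 CPM in G3 (SD, n = 6) against 92.4 ± 3.30 in G1 (SD, n = 5), while CD34 (log2 fold change -0.63, unadjusted p = 0.0228) and MYCT1 (-0.36, unadjusted p = 0.0480; -0.17 with the code series as covariate) were lower. CDH5 was at 0.23 (SE 0.159), KDR at 0.24 (SE 0.162) and TEK at 0.12 (SE 0.125), and the list's highest value was MMRN1 at 0.58 (SE 0.348). These are not ranked against the 3 members, whose values in this contrast chose them.

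Between G2 and G1 the same list had 23 of 30 positive (18 of 30 with library size alone), where 49.3% of all genes were positive, a median of 0.16 (0.08 with library size alone, and 0.07 to 0.10 without any one of G2 kidneys 2 and 4 and G1 kidneys 1 and 4) and 2 genes at an unadjusted p under 0.05 (3.51% of all genes), the sphingosine receptor S1PR1 (0.34) and EHD3 (0.62, and 0.41 without G2 kidney 4), a gene of glomerular endothelium. Between G3 and G2 it had 14 of 30 positive (49.7% of all genes) and a median of -0.04 (positive, at 0.00 to 0.07, without G2 kidney 1, G2 kidney 2 or G3 kidney 3), with 1 gene at an unadjusted p under 0.05 (3.13% of all genes), MYCT1, which was lower (-0.40). The mean log2 CPM of the list, used as a score, was 4.80 ± 0.0832 in G1 (SD, n = 5), 4.92 ± 0.212 in G2 (SD, n = 6) and 4.89 ± 0.206 in G3 (SD, n = 6), and the groups overlapped. Its summed level ran from 2056 to 2290 CPM in G1, 1792 to 3013 in G2 and 1750 to 2955 in G3. When the score was subtracted from each member's log2 CPM, the difference between G3 and G1 was 0.73 for SOX7, 0.36 for ERG and 1.28 for DIPK2B, beside 0.82, 0.46 and 1.38 without subtraction. Between G2 and G1 it was 0.22, 0.15 and 1.11, beside 0.34, 0.27 and 1.23. The difference between G3 and G1 chose the members, and G2 against G1 shares its G1 kidneys. What the subtraction left is therefore a description, and nothing is read from its size.

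Genes that ERG is known to activate, other than ERG itself, had 8 of 13 positive between G3 and G1 (46.9% of all genes), with a median of 0.12 (7 of 13 with library size alone). RHOJ, a small GTPase of endothelium, was the 1 gene of the 13 at an unadjusted p under 0.05 (4.73% of all genes), with 0.36. CLDN5 was at 0.34 (SE 0.318) and DLL4, a Notch ligand, at 0.12 (SE 0.149). Of the angiogenic ligands, receptors and Notch genes 11 of 19 were positive (9 of 19 with library size alone), with a median of 0.07, and ANGPT2, the ligand that loosens vessels, was higher at 8.29 ± 3.31 CPM in G3 (SD, n = 6) against 4.91 ± 2.20 in G1 (SD, n = 5; unadjusted p = 0.0196, adjusted p = 0.813). Of the endothelial activation genes 8 of 11 were positive (4 of 11 with library size alone), with a median of 0.09. The 3 negative genes included the adhesion genes ICAM1 at -0.29 (SE 0.186) and VCAM1 at -0.34 (SE 0.195). SELP (P-selectin) was higher at 43.1 ± 12.8 CPM in G3 (SD, n = 6) against 22.0 ± 7.44 in G1 (SD, n = 5; log2 fold change 0.96, unadjusted p = 0.000727, adjusted p = 0.465). Between G3 and G2 APLNR, a gene of both the ERG-activated and the angiogenic list, was lower by -1.14 (unadjusted p = 0.0309, adjusted p = 0.948). Without G2 kidney 3 it was at -0.71. APLNR was the 1 gene of either list at an unadjusted p under 0.05 in that comparison (3.13% of all genes).

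Of 15 other transcription factors of endothelium 9 were positive between G3 and G1 (6 with library size alone), with a median of 0.04. TCF4 was at 0.52 (SE 0.157, unadjusted p = 0.00424, adjusted p = 0.807) and LMO2 at 0.43 (SE 0.173, unadjusted p = 0.0242, adjusted p = 0.813). TCF4 was also at 0.47 between G2 and G1 (unadjusted p = 0.0397), and at 0.14 without G2 kidneys 1 and 2. It had a within-group r of 0.72 with SOX7, 0.86 with ERG and 0.81 with DIPK2B, the highest of its list with each. Over the 14 factors of the list with a mean of at least 1 CPM, r was positive for 7 with SOX7, 7 with ERG and 6 with DIPK2B, with medians of 0.01, -0.00 and -0.14. KLF4, a factor of the response to flow, had an r of -0.54, -0.74 and -0.63 with them, and HEY1, a Notch target, -0.40, -0.57 and -0.55. Of the glomerular, arterial and lymphatic endothelial genes, 4 of the 13 with reads in both groups were positive between G3 and G1, with a median of -0.20 over them. In none of these lists did a gene pass at an adjusted p under 0.05 in the edgeR, DESeq2 or voom fits made here. The study's own list of top regulated genes in G3 against G1, from its DESeq2 comparison, does hold TCF4. The reason for that difference was not tested.

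**Figure D3:**
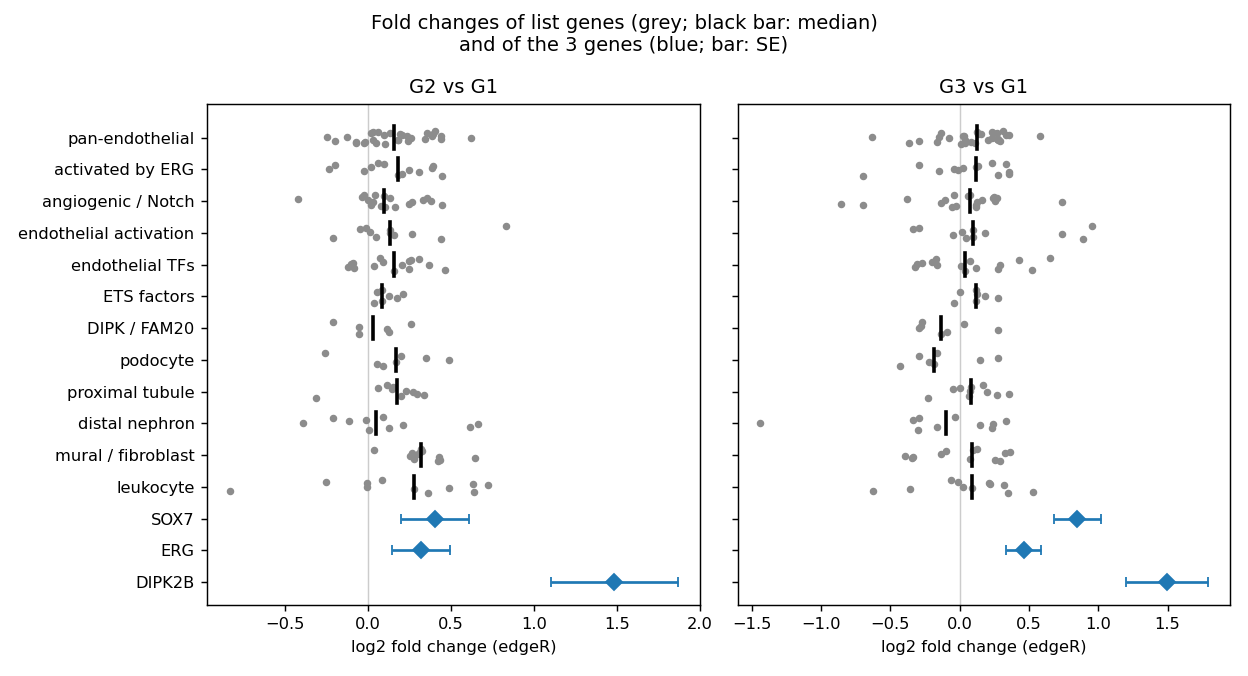
Log2 fold changes in edgeR's fits for G2 against G1 and G3 against G1, with grey points for the genes of each list, black bars for the list's median and blue diamonds with SE for SOX7, ERG and DIPK2B, which are left out of the lists, as are genes with 0 reads throughout a group. Medians of the lists drawn lie between -0.18 and 0.32 (the SoxF, glomerular, arterial and lymphatic, and erythroid and platelet lists are not drawn). DIPK2B is drawn at 1.48 and 1.49. The 3 members are not ranked against the list genes, since G3 against G1 chose them and G2 against G1 shares its G1 kidneys.

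Each of the 3 genes was set against 14 list scores, the total count and the number of genes detected, within groups and kidney by kidney, which made 48 relations with adjusted p-values over all of them. ERG passed with 4 endothelial scores and DIPK2B with 3, SOX7 passed with none, and the score of the other endothelial transcription factors went the opposite way without passing (r = -0.09 with SOX7, -0.19 with ERG and -0.31 with DIPK2B). ERG had r = 0.89 with the angiogenic and Notch score (permutation p = 0.000790, adjusted p = 0.0379), with rho = 0.86 (adjusted p = 0.0606). It had r = 0.76 with the general endothelial score (adjusted p = 0.0405, rho = 0.68), 0.76 with the genes it is known to activate (adjusted p = 0.0405, rho = 0.78) and 0.75 with the activation genes (adjusted p = 0.0405, rho = 0.71). Without the 2 kidneys farthest from the median of each score these r were 0.83, 0.69, 0.59 and 0.73, and with the code series removed they were 0.85, 0.81, 0.82 and 0.80. The lists share members such as KDR, FLT1 and TEK, so these are not separate relations, and no Spearman's rho in the 48 had an adjusted p under 0.05.

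DIPK2B had r = 0.81 with the angiogenic and Notch score (permutation p = 0.00202, adjusted p = 0.0405, rho = 0.82) and 0.73 with the activation genes (adjusted p = 0.0405, rho = 0.72). Its r with the general endothelial score was 0.68 (adjusted p = 0.0782, rho = 0.70) and with the glomerular, arterial and lymphatic score 0.57 (adjusted p = 0.0405, rho = 0.54), the latter dropping to 0.36 without G3 kidneys 2 and 3. With the code series removed, these 4 values were 0.60, 0.61, 0.67 and 0.68. SOX7 had lower values, 0.60 with the angiogenic and Notch score (adjusted p = 0.189), 0.52 with the general endothelial score (adjusted p = 0.226) and 0.50 with the activation genes (adjusted p = 0.226). Whether the r of SOX7 differ from those of ERG was not tested.

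At the level of single genes, ERG had a within-group r of 0.89 with PECAM1, 0.84 with KDR, 0.76 with CDH5 and 0.75 with FLT1. DIPK2B had 0.80 with ANGPT2, 0.76 with TEK, 0.70 with PECAM1 and 0.67 with KDR. SOX7 had 0.71 with ANGPT2, 0.66 with TEK, 0.60 with CDH5 and 0.49 with PECAM1. Its r with the leukocyte marker CD68 was 0.72, higher than with any of these 4 genes. ERG had 0.40 and DIPK2B 0.42 with CD68. Over the 9 leukocyte markers r with SOX7 was positive for 4, with a median of -0.02. Over the 30 general endothelial markers, r was positive for 23 with ERG, 23 with DIPK2B and 21 with SOX7, with medians of 0.40, 0.33 and 0.28, where 49.2%, 49.3% and 46.1% of all genes had a positive r. In the same order, 16, 16 and 13 of 18 angiogenic and Notch genes had a positive r, and 8, 8 and 7 of 10 activation genes. Of those with a negative r, ANGPT1 had -0.43, -0.52 and -0.69, and ICAM1 -0.24, -0.32 and -0.54. CD34, a general marker, had -0.41, -0.39 and -0.53.

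Markers of other cell types were followed in the same way. No score of podocytes, proximal tubule, distal nephron, mural cells and fibroblasts, leukocytes, or erythroid cells and platelets had an adjusted p under 0.05 with any of the 3 genes. The r of ERG with the podocyte score was 0.11 within groups and -0.23 without G1 kidney 2 and G2 kidney 4, the farthest from the median of that score. With the code series removed as well as the group, over all 17 kidneys, it was 0.79, close to the 0.80 to 0.85 of ERG with the 4 endothelial scores. With the leukocyte score r of ERG was 0.15, and 0.43 with the code series removed. SOX7 was lower in kidneys with higher proximal tubule (r = -0.55, adjusted p = 0.198) and distal nephron scores (r = -0.53, adjusted p = 0.198), neither of which passed, and without the 2 kidneys farthest from the median of each score these r were -0.24 and -0.33. Its r with the mural and fibroblast score was -0.45 (adjusted p = 0.238) and -0.72 without G3 kidneys 2 and 3. The total count had r of 0.01, 0.23 and 0.19 with SOX7, ERG and DIPK2B, and the number of genes detected 0.44, -0.03 and 0.05. The ETS scores had r between 0.04 and 0.42, and the DIPK and FAM20 scores between -0.39 and -0.31.

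**Figure D4:**
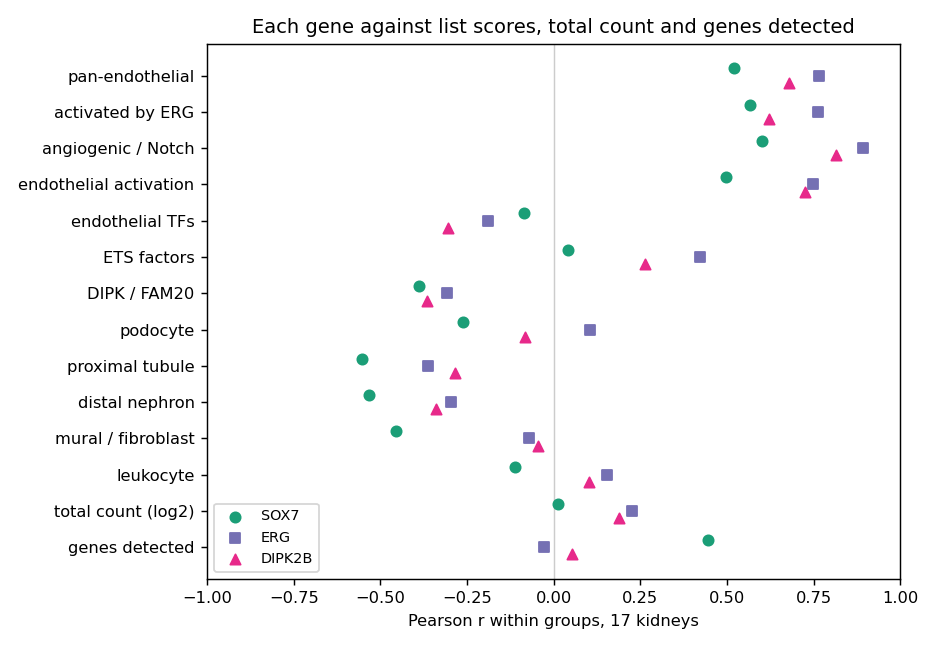
Pearson's r within groups over 17 kidneys between each gene (SOX7 green circles, ERG violet squares, DIPK2B pink triangles) and the mean log2 CPM of each list drawn, the log2 total count and the number of genes detected. The 4 upper endothelial lists stand to the right, between 0.50 and 0.89, with ERG above DIPK2B and DIPK2B above SOX7 in each. The other endothelial transcription factors stand at -0.09 (SOX7), -0.19 (ERG) and -0.31 (DIPK2B), and the tubular lists stand to the left of 0. The erythroid and platelet score is not drawn, nor is the glomerular, arterial and lymphatic score, where the order differs (DIPK2B 0.57, ERG 0.49, SOX7 0.33).

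Between groups, the lists of other cell types stood as follows, where 46.9% of all genes were positive between G3 and G1. Podocyte markers had 2 of 7 positive between G3 and G1 (summed level 253 to 384 CPM in G1 and 266 to 342 in G3). Proximal tubule markers had 8 of 10 positive (4 of 10 with library size alone), with a summed level of 13982 to 19955 CPM in G1 and 15353 to 23136 in G3. Distal nephron markers had 4 of 10 positive, with PVALB lower by -1.44 (unadjusted p = 0.00129, adjusted p = 0.551). Leukocyte markers had 7 of 11 positive (5 of 11 with library size alone), at 104 to 139 CPM summed in G1 and 117 to 141 in G3, and erythroid and platelet markers 2 of 8. Between G2 and G1 7 of the 11 leukocyte markers were positive and 4 negative, with a median of 0.28. The monocyte gene CD14, at 0.72 (unadjusted p = 0.000826), was the 1 gene of the 11 at an unadjusted p under 0.05 (3.51% of all genes). Mural and fibroblast markers had 7 of 12 positive between G3 and G1 (6 of 12 with library size alone). Between G2 and G1 12 of 12 were positive (11 of 12 with library size alone, beside 49.3% of all genes), and 2 of the 12 had an unadjusted p under 0.05, COL3A1 at 0.64 (unadjusted p = 0.0276) and PDGFRA at 0.42 (unadjusted p = 0.0341; 0.26 without G2 kidney 1). Between G3 and G2 9 of these 12 mural and fibroblast markers were negative, with a median of -0.18 and 3 collagen genes at an unadjusted p under 0.05 (3.13% of all genes), COL3A1 at -0.97, COL1A2 at -0.75 and COL1A1 at -0.63. In edgeR's test their unadjusted p was 0.00175, 0.00599 and 0.00705. No gene of these lists passed at an adjusted p under 0.05 in edgeR, DESeq2 or voom, and their part in the levels of SOX7, ERG and DIPK2B was not tested beyond the relations given above.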

How the data were processed

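Biopsies of 17 kidneys were sequenced (stranded mRNA libraries, read pairs). After adapter removal (cutadapt 4.0) and alignment to Sscrofa11.1 (STAR), the authors deposited raw counts, not normalized, for every gene in each kidney. The counting program and its strand setting are not given in the sources used here, so a gene cannot be told apart from transcripts overlapping it. A second deposited table holds the authors' own DESeq2 comparison of G3 with G1, and none of its fold changes, scores or p-values was used. It served to name SOX7, and other symbols came from a table pairing identifiers with symbols (15104 of 26560 genes).

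Each comparison of groups was fitted on its kidneys and the genes with at least 1 count, with the quasi-likelihood test of edgeR 4.0.16 (R 4.3.3), TMM scaling and Benjamini-Hochberg adjustment over all genes. Correlations used log2 CPM (prior count 2) minus group means and 100000 permutations of kidneys within groups, or all permutations within 1 group (exact), two-sided. Groups came from the sample labels, with each kidney from its own pig. Counts of same-group kidneys differed by 21.4 to 153 in chi-square per degree of freedom (40 pairs), so each was kept as a separate sample. The scripts were tested on simulated data.

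The members and the 15 gene lists were chosen with earlier results of these data known. Named genes were the members, their family members, list genes among the 3 smallest p of a list and comparison, defining markers, and the 5 genes of mean CPM at least 1 with the highest within-group r to each member. List genes given for their r, or beside a member for comparison, were added after their values were seen. Alternatives were DESeq2 1.42.0, limma 3.58.1 voom with quality weights, RLE or library size scaling, filterByExpr, 1 fit of all 3 groups, the code series or kidney number as a term, and leaving out kidneys. Correlations used Python 3.11.15 with scipy 1.17.1, numpy 2.4.6 and pandas 2.3.3, and plots used matplotlib 3.10.9. Sequences of the genes are not printed, and no promoter was searched. Some genes that this rule would name are not reported here.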

Additional observations from a re-analysis of the deposited data

Results flagged for a closer look

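1 value stood apart from its group by the gap of its lowest or highest kidney to the next, measured against the group's range. The distal nephron score of G3 kidney 1 was 5.42 on the log2 CPM scale, with the other 5 G3 kidneys between 5.84 and 6.01. The gap took 0.705 of the range. 57 groups of values were examined in this way, and chance gives about 1 in 20, or 2.85 of them. No value of SOX7, ERG or DIPK2B in any group stood apart by this measure.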

How the results depend on the processing

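For SOX7 and ERG the sign of all 3 group differences was kept in every alternative and with each kidney left out, as was that of DIPK2B between G3 and G1 and between G2 and G1, and no tested difference of a member passed at an adjusted p under 0.05. As kidneys were left out in turn, G3 exceeded G1 on the log2 scale by 0.73 to 0.94 for SOX7, 0.42 to 0.53 for ERG and 1.28 to 1.64 for DIPK2B. G2 exceeded G1 by 0.22 (without G2 kidney 2) to 0.51 for SOX7, 0.23 to 0.40 for ERG and 1.26 to 1.66 for DIPK2B. G3 exceeded G2 by 0.35 to 0.64 (without G2 kidney 2) for SOX7, and for ERG by 0.08 (without G2 kidney 5; 0.09 and 0.10 without kidneys 3 and 6) to 0.26 (without G2 kidney 1). DIPK2B between G3 and G2 turned sign to -0.0395 with library size alone, and ran from -0.19 (without G3 kidney 2) to 0.25 (without G2 kidney 2). The cause of these shifts, and of those that follow, was not tested.

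The number of general endothelial markers at an unadjusted p under 0.05 was 1 between G3 and G1 with all 3 groups in 1 fit, and 0 (without G1 kidney 2) to 8 (without G3 kidney 3) with a kidney left out. Between G2 and G1 it was 1 with voom, RLE factors, filterByExpr or without G2 kidneys 1 and 2, 0 with library size alone, 6 with the code series as covariate, and 0 (without G1 kidney 2, 4 or 5 or G2 kidney 2 or 4) to 4 (without G2 kidney 5) with a kidney left out. Between G3 and G2 it was 2 with the code series, 4 without G2 kidneys 1 and 2, and 0 (without G2 kidney 1 or 6 or G3 kidney 6) to 2 (without G2 kidney 5 or G3 kidney 2) with a kidney left out.

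Of all genes, 2 passed the adjusted threshold in edgeR for G3 against G1, and this number was 31 in DESeq2, 1 in voom, 1 with filterByExpr, 0 with all 3 groups in 1 fit, 11 with the code series, and 0 (without G1 kidney 1 or 3 or G3 kidney 2 or 5) to 9 (without G1 kidney 5) with a kidney left out. Between G2 and G1 it was 1 in DESeq2, 2 with the code series and 1 without G2 kidneys 1 and 2. Between G3 and G2 it was 3 in DESeq2, 2 without G2 kidneys 1 and 2, and 0 to 5 (without G2 kidney 2) with a kidney left out.

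Kidney numbers recur in the groups, but each kidney came from its own pig. Of 16 same-numbered pairs 8 had a correlation of deviations over 0.1 (range -0.26 to 0.44), and 4 fitted best with their own number, so the numbers do not pair the kidneys. With kidney number as a replicate block, 9 genes were called between G3 and G1 and 7 between G3 and G2.

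For SOX7 with ERG, r was 0.71 with library size alone (adjusted permutation p = 0.0110), and 0.46 to 0.71 with a kidney left out. For SOX7 with DIPK2B it was 0.65 with the code series removed (adjusted p = 0.101), 0.52 without the 2 farthest kidneys (adjusted p = 0.150), 0.56 without G2 kidneys 1 and 2 (adjusted p = 0.111), and 0.62 to 0.80 with a kidney left out. For ERG with DIPK2B it was 0.69 with the code series removed (adjusted p = 0.101). Spearman's rho and a prior count of 0.5 left each pair on its side of the threshold. Of 2462 alternative values of 124 list gene results, 2425 stayed within the spread between kidneys of the value reported and 37 did not. Library size alone shifted the median of all genes by -0.08 between G3 and G1. Depth limits DIPK2B most, at 21 to 163 reads.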
